A study of Mus musculus with 69 samples.

Results

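The genes described here are the matrix metalloproteinases Mmp2, Mmp8, Mmp9, Mmp11, Mmp12 and Mmp14, the aggrecanase Adamts4 and the tissue inhibitors of metalloproteinases Timp1, Timp2 and Timp3. They were chosen by name, and a probe was taken as a member when its transcript identifier mapped to one of these 10 symbols. All 10 genes were found among the 18745 gene symbols on the array. They were measured by 13 probes, with 2 probes each for Mmp9, Mmp14 and Timp1 and 1 probe for each of the other 7 genes, and all 13 probes passed the filter on dim signals.

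Lung RNA was taken from 69 female C57BL/6 mice, 5 to 7 weeks old on arrival and acclimatised for 1 to 3 weeks, each hybridised on its own 2-colour array against a common mouse reference RNA. Each mouse had received a single intratracheal instillation of titanium dioxide nanoparticles or of the vehicle. NRCWE-001 is the unmodified particle without surface charge, NRCWE-002 is the modified particle with a positive charge, and either was given at 18, 54 or 162 µg. The vehicle is named water in the sample labels and 2% serum in water in the description of the design. Lungs were collected on day 1 or day 28, with 5 mice in 13 of the 14 groups and 4 mice in the vehicle group of day 28. The sample was lung tissue, so fewer cells of a type and less RNA per cell cannot be told apart.

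Metalloproteinases are zinc-dependent enzymes that cut collagens, elastin, proteoglycans and other extracellular proteins, and most are secreted as inactive precursors. TIMPs bind the active enzymes and block them. In the lung these enzymes come from resident epithelial, stromal and macrophage cells and, during acute inflammation, from neutrophils, which carry Mmp8 and Mmp9 in their granules. Timp1 is inducible by inflammatory cytokines, whereas Timp2 and Timp3 are expressed in many tissues at rest.

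Promoter sequence is shown for the 2 members that passed the test against vehicle, Timp1 and Mmp11, as the 250 bases before the annotated start (RefSeq, GRCm38.p6, 5′ to 3′ on the strand of the gene). The Timp1 window lies at chrX:20869916-20870165 on the plus strand and the Mmp11 window at chr10:75932503-75932752 on the minus strand. Capitals mark the CCAAT box (CCAAT) and the GC box (GGGCGG), searched on both strands together with AP-1 (TGACTCA), STAT (TTCNNNGAA) and TATA box (TATAAA) letters.
Timp1: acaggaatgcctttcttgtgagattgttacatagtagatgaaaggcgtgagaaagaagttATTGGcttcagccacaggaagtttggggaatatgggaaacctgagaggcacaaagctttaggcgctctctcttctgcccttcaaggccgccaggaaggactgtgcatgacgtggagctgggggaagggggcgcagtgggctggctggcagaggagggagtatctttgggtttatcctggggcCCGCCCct
Mmp11: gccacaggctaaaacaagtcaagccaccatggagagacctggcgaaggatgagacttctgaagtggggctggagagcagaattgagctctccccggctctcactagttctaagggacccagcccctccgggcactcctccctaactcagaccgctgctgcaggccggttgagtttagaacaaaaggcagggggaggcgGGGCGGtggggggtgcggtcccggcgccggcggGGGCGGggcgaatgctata
The Timp1 window held 1 CCAAT match and 1 GC box match, and the Mmp11 window held 2 GC box matches. Among 32851 promoter windows of this length, 33.8% held a CCAAT match and 32.7% a GC box match. The AP-1 letters were in 4.46% of all windows and, among the 7 members with a promoter entry, in Mmp12 alone. The STAT letters (7.02% of all windows) and the TATA letters (12.4%) were in no window of these 7 genes. These matches describe letters and not binding.

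Levels are given as the log2 ratio of the lung signal to the reference signal, and the ratio of a gene is compared between groups, not with that of another gene. Between 61.4% and 87.8% of the spots of an array were well above background in the lung channel, and 0 were saturated. All 13 alveolar and airway epithelial markers and all 9 endothelial markers tested were well above background on all 69 arrays. The arrays lay on 18 slides, and 59.5% of the variation within groups lay between slides. This share includes what slide terms take up by chance, and the within-slide correlation with slide as a random block was 0.47. Values within slides are therefore given beside the main results. In a mouse given 162 µg of NRCWE-001 and killed on day 1 (replicate 5), the ratios of Timp1, Lcn2, Saa1, Saa2, Cxcr2 and Serpina3n lay within the range of the vehicle mice, and the members' values in this group are also given without it where they were called or close to the threshold. This mouse was set apart by these response values, so larger differences without it are no separate support.

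On day 1, Timp1 rose about 6-fold at the highest dose of both particles and at the middle dose of NRCWE-002, and it was the 1 member of 10 that passed the test (limma, Benjamini-Hochberg adjusted p below 0.05 over 17624 genes) in each of these comparisons. Over all genes, 0.579% were called at 162 µg of NRCWE-001 (0.443% higher and 0.136% lower), 0.0624% at 54 µg of NRCWE-002 (all of them higher) and 0.596% at 162 µg of NRCWE-002 (0.482% higher and 0.113% lower). No member was called at 18 µg of either particle or at 54 µg of NRCWE-001 on day 1, where 0% of all genes were called. The median log2 difference of the 10 members was 0.05 at 162 µg of NRCWE-001 and 0.15 at 162 µg of NRCWE-002, beside 0.01 over all genes in both comparisons. At an unadjusted p below 0.05, 3 of 10 members passed at 162 µg of NRCWE-001, beside 7.08% of all genes, and 5 of 10 at 162 µg of NRCWE-002, beside 8.94%.

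**Figure D1:**
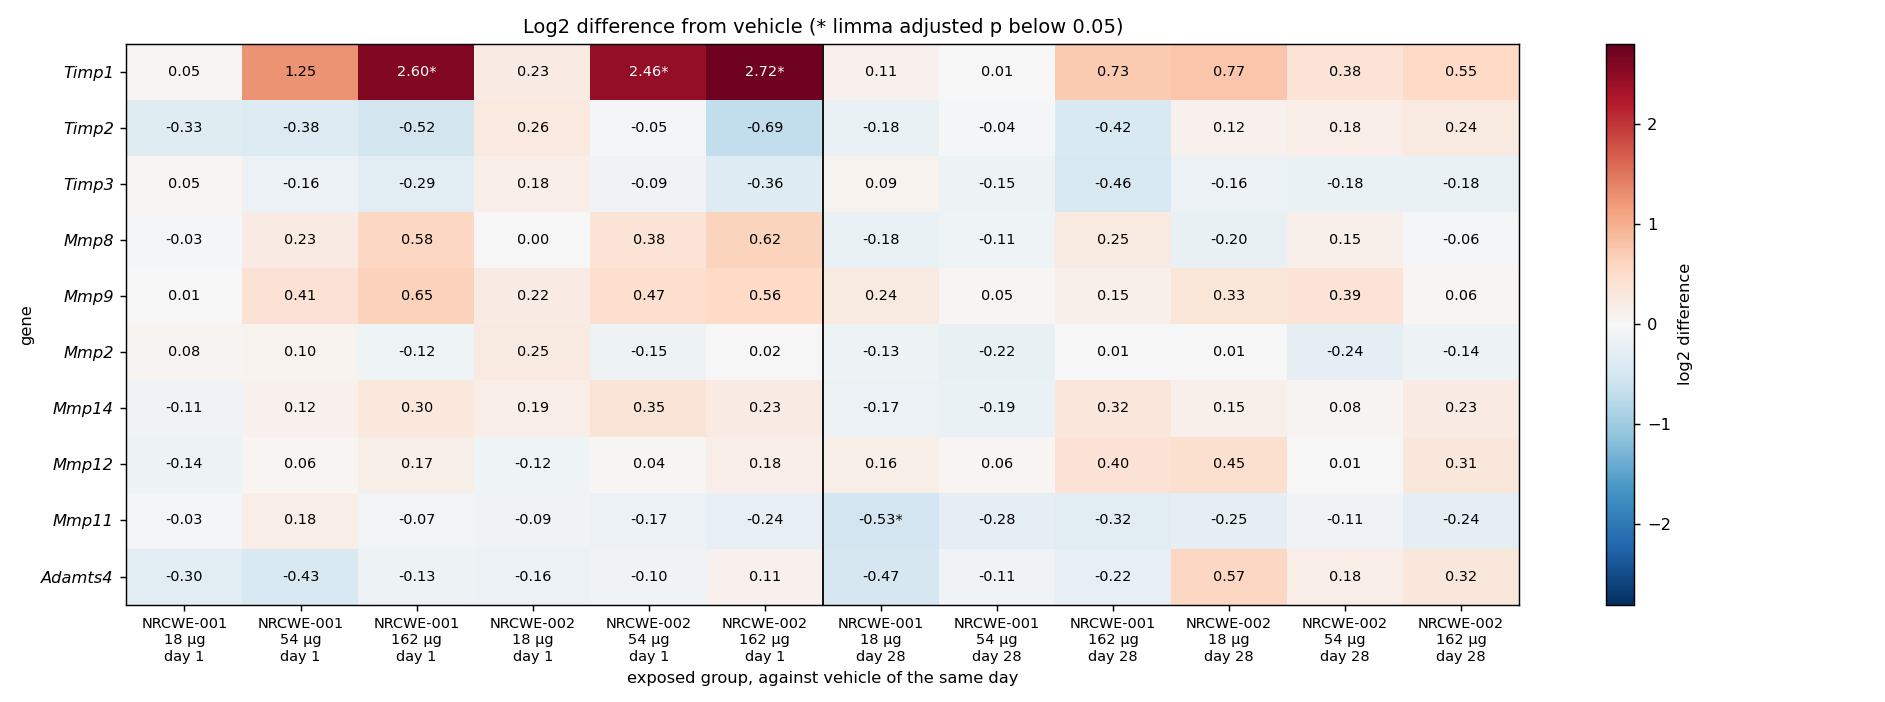
Log2 difference between each exposed group and the vehicle group of the same day (columns) for the 10 genes (rows), with colour and printed number giving the same value and an asterisk marking a limma adjusted p below 0.05. Timp1 carries the 3 asterisks of day 1 (2.60, 2.46 and 2.72), and Mmp11 the single one of day 28 (-0.53).

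Timp1 encodes a secreted inhibitor of most metalloproteinases. In the 5 vehicle mice of day 1 its log2 ratios were -2.27, -2.62, -2.47, -2.53 and -2.47. In the mice given 162 µg of NRCWE-001 they were 0.46, 0.43, 0.80, 1.42 and -2.48. Of these, 4 of 5 lay above every vehicle mouse and the remaining one, replicate 5, lay within the vehicle range. The difference from vehicle was 2.60 ± 0.49 (SE, n = 5 against 5), a 6.06-fold higher level (limma, adjusted p = 0.003225). Without replicate 5 the log2 difference was 3.25, the highest value when any 1 array was left out, and it was lowest, 2.28, without replicate 4. Without replicate 5, 2 of 10 members were called, Timp1 and Mmp9, beside 1.65% of all genes in that fit.

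For NRCWE-002 the Timp1 response was already present at the middle dose. The ratios at 54 µg were 1.00, -0.55, -0.94, 0.69 and -0.24, and those at 162 µg were 0.26, 0.83, 0.64, 1.50 and -1.98. All 10 mice lay above all 5 vehicle mice, although the replicate 5 mouse at 162 µg stood closest to them. The log2 difference from vehicle was 2.46 ± 0.49 (SE) at 54 µg, or 5.52-fold (limma, adjusted p = 0.01357), and 2.72 ± 0.49 at 162 µg, or 6.59-fold (adjusted p = 0.002309). The call at 54 µg depended on single arrays, since it was lost in 4 of 10 fits that left out 1 array (vehicle replicate 2 or 3, or exposed replicate 1 or 4, with adjusted p of 0.0503 to 0.115). It was also lost when only the arrays of day 1 were fitted (adjusted p = 0.0753).

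The mice given the middle dose of NRCWE-001 differed widely in Timp1. The ratios were -0.36, -0.85, 0.55, -2.60 and -2.84, so that 3 of 5 mice lay far above the vehicle group and 2 of 5 did not. In these 2 mice, replicates 4 and 5, Lcn2 (0.88 and 1.18) lay within the vehicle range and Saa3 (-3.68 and -3.94) within or below it, as in replicate 5 at 162 µg. The arrays of replicate 5 at both doses lay on slide 10, and that of replicate 4 on slide 8. Slide 10 also held the lowest mouse of 54 µg NRCWE-002, which lay above the vehicle mice. Whether the 3 NRCWE-001 arrays at the vehicle level match their labels was not tested, and the means of both NRCWE-001 groups include them. For 54 µg of NRCWE-001 the log2 difference of 1.25 did not pass the test (limma, adjusted p = 0.857). At 18 µg the ratios ran from -2.78 to -1.87 for NRCWE-001 and from -2.43 to -2.09 for NRCWE-002, with log2 differences from vehicle of 0.05 and 0.23. The dose effect on Timp1 over the 3 doses of a particle on day 1 passed the moderated F-test for NRCWE-001 (limma, adjusted p = 0.003109) and for NRCWE-002 (adjusted p = 1.38e-04), where 0.698% and 0.823% of all genes were called, and Timp1 was the 1 member of 10 called in each.

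**Figure D2:**
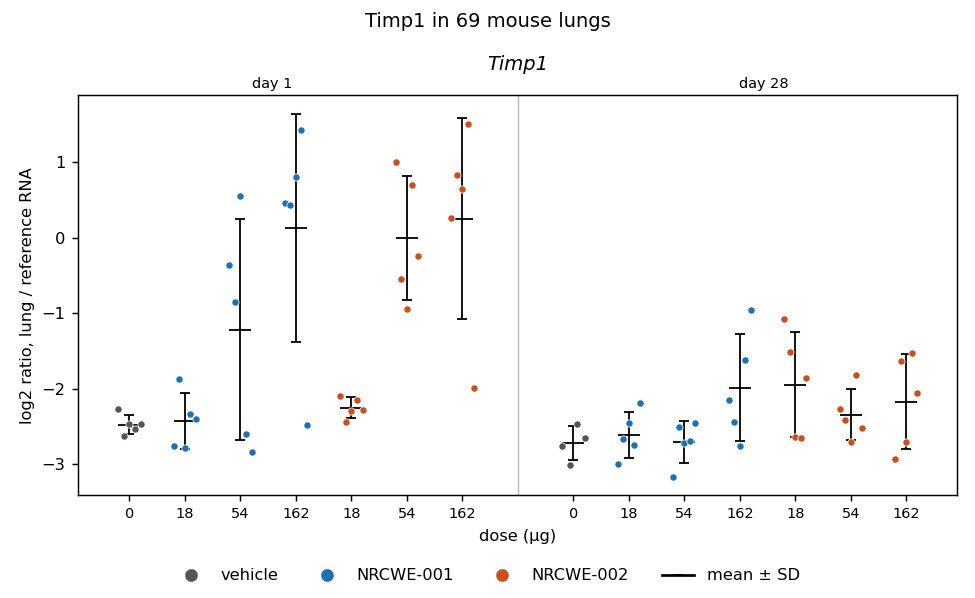
Log2 ratio of Timp1 in each of the 69 lungs (points) by dose in µg and day, with the mean and SD of each group in black. On day 1 the exposed mice at 54 and 162 µg lay above -2, except for 3 values of NRCWE-001 between -2.84 and -2.48, at the level of the vehicle mice. The lowest mouse at 162 µg of NRCWE-002 lay close to that cut, at -1.985.

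On the slides that held a vehicle array, the day 1 difference of Timp1 was as large between arrays of the same slide. On the 3 slides that held both a vehicle array and an array of 162 µg NRCWE-001, the exposed array was higher by 2.73 to 3.28. On the 2 such slides of 162 µg NRCWE-002 it was higher by 2.79 and 3.11, and on the 2 of 54 µg NRCWE-002 by 2.23 and 3.53. These values cover only part of each group. The lowest and the highest mouse of each 162 µg group, replicates 5 and 4, lay on slides without a vehicle array. So did replicates 2, 3 and 4 of 54 µg NRCWE-002, which include the lowest mice of that group. With slide as a fixed block, the Timp1 log2 difference was 2.84 at 162 µg of NRCWE-001, 3.10 at 54 µg and 2.87 at 162 µg of NRCWE-002. For NRCWE-001 at 54 µg, the within-slide differences on 3 slides were 1.77 to 3.03, and the 2 low arrays of that group lay on slides without a vehicle array. The 2 Timp1 probes had the same direction and not the same size. With 162 µg of NRCWE-001 the log2 difference was 1.98 for one probe and 3.22 for the other, and at 162 µg of NRCWE-002 it was 2.10 and 3.35.

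Whether the particles differed in Timp1 was asked over the mean of the 3 doses. On day 1 the ratio after NRCWE-002 was 0.50 higher on the log2 scale than after NRCWE-001, with a 95% interval of -0.06 to 1.07 (limma, adjusted p = 0.7515), and was not called.

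Day 28 Timp1 ratios were lower and closer to the vehicle level. The 4 vehicle mice had -2.76, -3.00, -2.47 and -2.64. After 162 µg the mice had -2.15, -2.43, -2.76, -1.62 and -0.96 with NRCWE-001 and -2.93, -1.63, -2.71, -1.53 and -2.05 with NRCWE-002. The group means exceeded vehicle by 0.73 and 0.55, with the exposed and vehicle ranges overlapping, and neither passed the test (limma, adjusted p = 0.7588 for NRCWE-001). Within slides, the 162 µg array differed from the vehicle array by 0.85 on 1 slide for NRCWE-001. For NRCWE-002 it was lower on both of 2 slides, by -0.17 and -0.06. At 162 µg on day 28 no member was called, where NRCWE-001 gave 0.0454% of all genes and NRCWE-002 gave 0.00567%. The largest log2 difference of day 28 was 0.77, at 18 µg of NRCWE-002, which was not called either. Within the 2 slides that held this group and a vehicle array, the differences were 0.0 and 1.68. The 162 µg effect on Timp1 was smaller on day 28 than on day 1 by 1.86 for NRCWE-001 (95% interval of the difference, -3.30 to -0.43) and by 2.17 for NRCWE-002 (-3.61 to -0.74). These differences had unadjusted p-values of 0.0118 and 0.003647 in limma and did not pass after adjustment over all genes (adjusted p = 0.9996 and 0.5401), where 0% of genes were called.

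The 3 genes whose ratios followed Timp1 most closely over the 69 arrays were the acute-phase genes Saa1 (Pearson r = 0.970), Saa2 (0.955) and Saa3 (0.952). After subtraction of slide means the coefficients were 0.975, 0.962 and 0.950. These arrays share the reference RNA and the groups, and the correlations are given as a description. In the replicate 5 mouse at 162 µg of NRCWE-001, in which Timp1 stood at the vehicle level, Saa3 was -3.51, while it was 3.72 to 5.14 in the other 4 mice of the group and -3.78 to -3.04 in the vehicle mice.

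Timp2 and Timp3, the inhibitors expressed at rest, were not called against vehicle at any dose on either day. Both encode inhibitors of metalloproteinases, and Timp3 is bound to the matrix. The vehicle mice of day 1 had Timp2 ratios of 1.45, 1.54, 0.94, 1.92 and 1.24, and mice given 162 µg of NRCWE-002 had 1.45, 0.56, 0.81, 0.46 and 0.35. Their ranges overlapped, and the log2 difference of -0.69 was not called (limma, unadjusted p = 0.04711, adjusted p = 0.5463). The corresponding difference of Timp2 with NRCWE-001 was -0.52. Timp3 had vehicle ratios of 1.55 to 1.78 on day 1, against 0.97 to 2.05 at 162 µg of NRCWE-001 and 0.89 to 1.64 at 162 µg of NRCWE-002, with log2 differences of -0.29 and -0.36 that were not called. Within slides the exposed array was lower for Timp2 on 3 of 3 slides at 162 µg of NRCWE-001 (-0.75 to -0.41) and on 2 of 2 at 162 µg of NRCWE-002 (-0.47 and -0.43). For Timp3 the differences on the same slides were -0.58 to -0.21 and -0.27 and -0.14.

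Mmp8, neutrophil collagenase, and Mmp9, gelatinase B, had higher mean ratios at 162 µg on day 1 by about 1.5-fold, without passing the adjusted test in the fit of all arrays. In the vehicle mice, Mmp9 ratios were -1.51, -1.73, -1.61, -1.53 and -1.43. After 162 µg they were -0.45, -1.32, -0.73, -0.93 and -1.15 with NRCWE-001 and -0.88, -0.95, -1.35, -0.95 and -0.89 with NRCWE-002. Every exposed mouse lay above every vehicle mouse with both particles. The log2 difference was 0.65 ± 0.17 (SE), or 1.56-fold (limma, adjusted p = 0.05928), for NRCWE-001 and 0.56 ± 0.17, or 1.47-fold (adjusted p = 0.1356), for NRCWE-002.

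Mmp8 ratios in the vehicle mice were 0.80, 0.87, 0.68, 0.86 and 0.83. After 162 µg they were 1.66, 1.09, 1.19, 1.98 and 1.01 with NRCWE-001 and 1.50, 1.91, 1.26, 1.35 and 1.14 with NRCWE-002. The groups again did not overlap. With NRCWE-001 the log2 difference of Mmp8 was 0.58 ± 0.18 (SE, limma adjusted p = 0.1798), and with NRCWE-002 it was 0.62 ± 0.18 (adjusted p = 0.1066). In all, 2 of 10 members, Mmp8 and Mmp9, had all exposed above all vehicle ratios at 162 µg of NRCWE-001, where 1.99% of all genes did. At 162 µg of NRCWE-002 there were 3 of 10, Mmp8, Mmp9 and Timp1, where 3.55% of all genes did.

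At the middle dose the Mmp9 ratios were also all above the vehicle range. They ran from -1.33 to -0.89 with NRCWE-001, a log2 difference of 0.41, and from -1.32 to -0.70 with NRCWE-002, a difference of 0.47. All exposed exceeded all vehicle ratios for 2.05% and 1.7% of all genes in these comparisons. Mmp8 overlapped the vehicle range at 54 µg, with log2 differences of 0.23 and 0.38. At 18 µg neither gene was called, the highest log2 difference being 0.22, for Mmp9 with NRCWE-002.

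**Figure D3:**
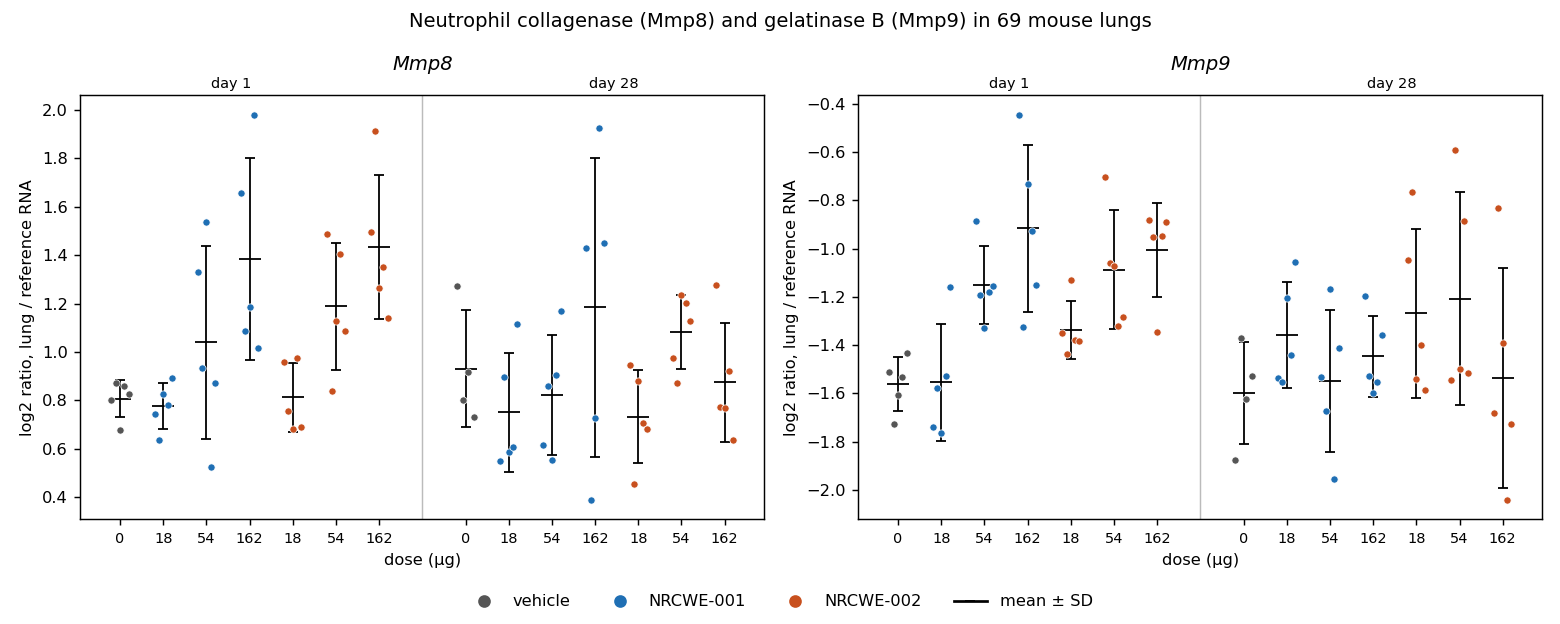
Log2 ratios of Mmp8 (left) and Mmp9 (right) in each lung (points) by dose in µg and day, with group mean and SD in black. At 162 µg on day 1 all exposed mice lie above the vehicle mice, whose highest ratios were 0.87 for Mmp8 and -1.43 for Mmp9, while on day 28 the groups overlap.

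The test of Mmp8 and Mmp9 depended on how slides were treated. At 162 µg of NRCWE-001 both passed with slide as a fixed block, with log2 differences of 0.59 (limma, adjusted p = 0.02325) for Mmp8 and 0.71 (adjusted p = 0.002691) for Mmp9, and 4 of 10 members (Timp1, Mmp8, Mmp9 and Mmp14) were then called, beside 4.38% of all genes in that fit. For NRCWE-002 at that dose the same block gave 0.46 (adjusted p = 0.2016) and 0.43 (adjusted p = 0.1826). Within slides, the exposed array was higher on 3 of 3 slides for NRCWE-001, by 0.22 to 0.85 for Mmp8 and by 0.40 to 1.07 for Mmp9. For NRCWE-002 it was higher on 2 of 2 slides, by 0.44 and 0.64 for Mmp8 and by 0.08 and 0.65 for Mmp9. Both Mmp9 probes were higher, by 0.73 and 0.57 on the log2 scale at 162 µg of NRCWE-001. Without replicate 5 of 162 µg NRCWE-001, whose Mmp8 and Mmp9 ratios of 1.01 and -1.15 were above the vehicle range, Mmp9 passed the test with a log2 difference of 0.70 (limma, adjusted p = 0.02238), and Mmp8 was at 0.67 (adjusted p = 0.0536).

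Neutrophil markers moved in the same comparison. Of 13 neutrophil markers tested, none of them a member, 5 rose at 162 µg of NRCWE-001 on day 1 (Il1r2, Cxcr2, Cd177, Trem1 and Csf3r, the fifth outside the naming rule), with a median log2 difference of 0.65 over the list. Cd177, a neutrophil surface protein, rose 2.25-fold (limma, adjusted p = 0.02161), and the chemokine receptor Cxcr2 1.61-fold (adjusted p = 0.02011). With 162 µg of NRCWE-002, 1 of 13 rose, Trem1, and the median was 0.43. The mean ratio over the list ran from 1.04 to 1.46 in the vehicle mice, from 1.11 to 2.18 at 162 µg of NRCWE-001 and from 1.42 to 1.88 at 162 µg of NRCWE-002. The lowest of the NRCWE-001 values, 1.11, belonged to replicate 5, in which Timp1 was low. In NRCWE-001 at 54 µg, the list mean was 1.90, 1.45 and 1.62 in the 3 mice with high Timp1 and 1.05 and 1.27 in the other 2. Of the 13 markers, 9 were well above background on all 69 arrays. The part of these cells in the Timp1, Mmp8 and Mmp9 results was not tested.

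On day 28 neither enzyme was called at any dose. Mmp8 ratios at 162 µg of NRCWE-001 were 1.43, 0.39, 0.73, 1.92 and 1.45, against 1.27, 0.80, 0.92 and 0.73 in the vehicle mice, a log2 difference of 0.25 with overlapping groups. The Mmp9 differences ran from 0.05 to 0.39 over the 6 exposed groups. The change of the 162 µg effect of NRCWE-002 on Mmp8 between the days was -0.68 (95% interval -1.21 to -0.15, limma adjusted p = 0.6184).

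Mmp2, gelatinase A, and Mmp14, a membrane-bound enzyme that activates the Mmp2 precursor, were not called against vehicle in any of the 12 groups in the fit without a slide block. On day 1, Mmp2 log2 differences ran from -0.15 to 0.25 and those of Mmp14 from -0.11 to 0.35. Within slides, Mmp14 was higher than in the vehicle array on 3 of 3 slides at 162 µg of NRCWE-001, by 0.13 to 0.53, and on 2 of 2 at 162 µg of NRCWE-002, by 0.30 and 0.36. With slide as a fixed block the difference at 162 µg of NRCWE-001 was 0.41 and was called (limma, adjusted p = 0.02711). This was the 1 alternative of 11 under which Mmp14 was called there. None of the 10 fits that left out 1 array called it. On day 28 Mmp2 varied with the slide. The 7 arrays of slides 3 and 16, all of day 28, held the 7 highest Mmp2 ratios of the series, -0.36 to 1.15, against a highest ratio of -0.53 on the other 62 arrays. Slide 3 held the vehicle array with the ratio of 0.15 and 1 array of each NRCWE-001 dose, while slide 16 held only 3 arrays, 1 of each NRCWE-002 dose. The 3 arrays of slide 16 also held the 3 highest Timp2 ratios, 2.48 to 2.85, against at most 2.15 elsewhere.

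Leaving out slide 16 turned some day 28 directions. The log2 difference of Mmp14 at 18 µg of NRCWE-002 was 0.15 with the slide and -0.02 without it, and that of Adamts4 was 0.57 and -0.03. For Timp2 it was 0.12 and -0.24. None of these values was called with or without the slide. The part of the slide in these values was not tested beyond this. The Mmp14 ratios at 162 µg of NRCWE-001 on day 28 were -0.98, -0.69, -1.12, -0.74 and -0.74, against -1.24, -0.98, -1.23 and -1.25 in the vehicle mice, a log2 difference of 0.32 that did not pass (limma, adjusted p = 0.6352). On the 1 slide that held arrays of both groups, the exposed minus vehicle difference was 0.0. At 54 µg of NRCWE-001 on day 28 all 5 mice lay below all 4 vehicle mice in Mmp14, with a log2 difference of -0.19 that was not called, as 0.681% of all genes did. The 2 Mmp14 probes gave log2 differences of 0.23 and 0.38 at 162 µg of NRCWE-001 on day 1. At 162 µg of NRCWE-002 on day 1 they gave 0.10 and 0.36. At 18 µg on day 1 the probes differed in sign, with -0.30 and 0.08 for NRCWE-001 and -0.08 and 0.47 for NRCWE-002. The first value of each pair is that of the brighter probe.

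Mmp12, macrophage elastase, was near the detection limit of the array. Its probe was well above background on 26 of 69 arrays and on none of the vehicle arrays of either day, so the vehicle level is only a bound. It was detected on 0 of 5 arrays at 18 µg of both particles on day 1 and on 3 of 5 and 4 of 5 arrays at 162 µg of NRCWE-001 and NRCWE-002. On day 28 it was detected on 14 of 30 exposed arrays. On day 28 the mean Mmp12 ratio was 1.32-fold the dim vehicle value at 162 µg of NRCWE-001 and 1.36-fold at 18 µg of NRCWE-002, and these folds rest on a vehicle signal that was not well above background. No Mmp12 contrast passed the test (limma, adjusted p = 0.456 for the former group and 0.7227 for the latter).

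The Mmp12 ratios were uneven within groups. At 18 µg of NRCWE-002 on day 28 they were 1.07, 0.33, -0.18, -0.17 and 0.95, so that 3 of 5 mice lay above the highest vehicle ratio of 0.06. The mean ratio over 15 macrophage markers, none a member, was 2.96, 2.48, 1.94, 2.36 and 2.52 in the same mice and 2.02 to 2.24 in the vehicle mice. At 162 µg of NRCWE-001 the Mmp12 ratios were 0.43, -0.09, 0.06, 0.73 and 0.64 beside macrophage means of 2.82, 1.77, 2.13, 2.82 and 2.61. In both groups the 3 mice with the highest Mmp12 ratios also had the 3 highest macrophage means. The part of macrophage number in the Mmp12 ratios was not tested.

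Mmp11, stromelysin-3, a stromal enzyme that is activated inside the cell, was the member that differed on day 28. It was lower after NRCWE-001, and at 18 µg it fell to 0.69 of the vehicle level. The vehicle ratios were 0.04, 0.28, -0.01 and 0.18, and those at 18 µg were -0.26, -0.26, -0.65, -0.37 and -0.53, without overlap. The log2 difference was -0.53 ± 0.09 (SE, limma adjusted p = 0.001449), and Mmp11 was the 1 member of 10 called, in a comparison in which 0.193% of all genes were called and 0.0738% were called lower. Of all genes, 1.73% had every exposed ratio below every vehicle ratio in this comparison.

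The Mmp11 difference did not grow with dose. At 54 µg of NRCWE-001 the ratios ran from -0.42 to 0.08. At both 54 and 162 µg, 4 of 5 mice lay below every vehicle mouse and 1 lay within the vehicle range. The log2 differences of -0.28 and -0.32 (limma, adjusted p = 0.1916 at 162 µg) were not called. The dose effect over the 3 doses passed the moderated F-test (limma, adjusted p = 0.005378), with 0.477% of all genes called. After NRCWE-002 the differences on day 28 were -0.25, -0.11 and -0.24 at 18, 54 and 162 µg, none of them called. On day 1, Mmp11 differed from vehicle by -0.24 to 0.18 and was not called at any dose.

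The call at 18 µg was kept in 9 of 9 fits that left out 1 array, with log2 differences of -0.58 to -0.48. It was lost with median centring in place of loess (log2 difference -0.39, limma adjusted p = 0.8558) and when only day 28 arrays were fitted (adjusted p = 0.07778). On the 2 slides that held both groups the exposed minus vehicle differences were -0.55 and -0.24. With slide as a fixed block the log2 difference was -0.47 (adjusted p = 0.01778).

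**Figure D4:**
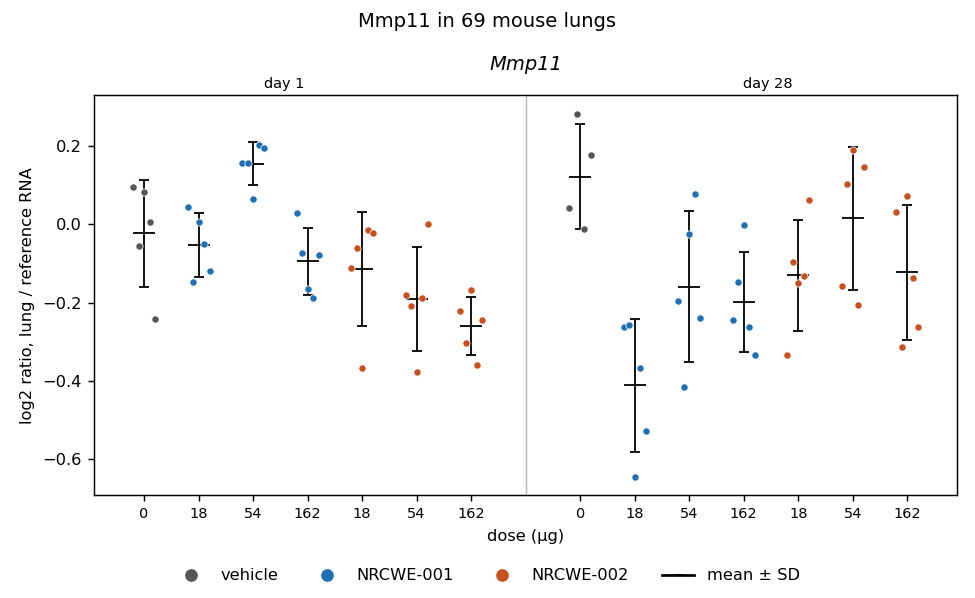
Log2 ratio of Mmp11 in each lung (points) by dose in µg and day, with group mean and SD in black. On day 28 the 5 mice given 18 µg of NRCWE-001 lie between -0.65 and -0.26, below the 4 vehicle mice at -0.01 to 0.28.

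The particles were also compared for Mmp11 on day 28. Averaged over doses, the ratio after NRCWE-002 was 0.18 ± 0.05 (SE) higher than after NRCWE-001 on the log2 scale (limma, adjusted p = 0.03026), and 1 of 10 members and 4.75% of all genes were called, 2.16% as higher and 2.59% as lower. This difference was not called with slide as a fixed block (0.11, adjusted p = 0.9179) and turned to -0.15 with median centring (adjusted p = 0.3019). On day 1 the difference between the particles ran the other way, -0.19 (limma, adjusted p = 0.1341), and no member was called, beside 0.125% of all genes. The 3 genes most like Mmp11 over the 69 arrays were Ppfibp2 (Pearson r = 0.647), Snx22 (0.597) and Vps33b (0.595), a far looser likeness than that of Timp1 to its neighbours.

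Adamts4, an aggrecanase that cuts aggrecan and versican, had the largest SD of the 10 members among the vehicle mice of day 1, 1.31. Its ratios on day 1 were -0.77, -0.13, -1.25, -0.71 and 2.07, so 1 vehicle mouse lay far above the rest. The log2 differences of the 12 exposed groups ran from -0.47 to 0.57, and none was called. Averaged over doses on day 28, Adamts4 was 0.62 higher after NRCWE-002 than after NRCWE-001 (SE 0.24, limma adjusted p = 0.1068), and 0.37 higher without slide 16.

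**Figure D5:**
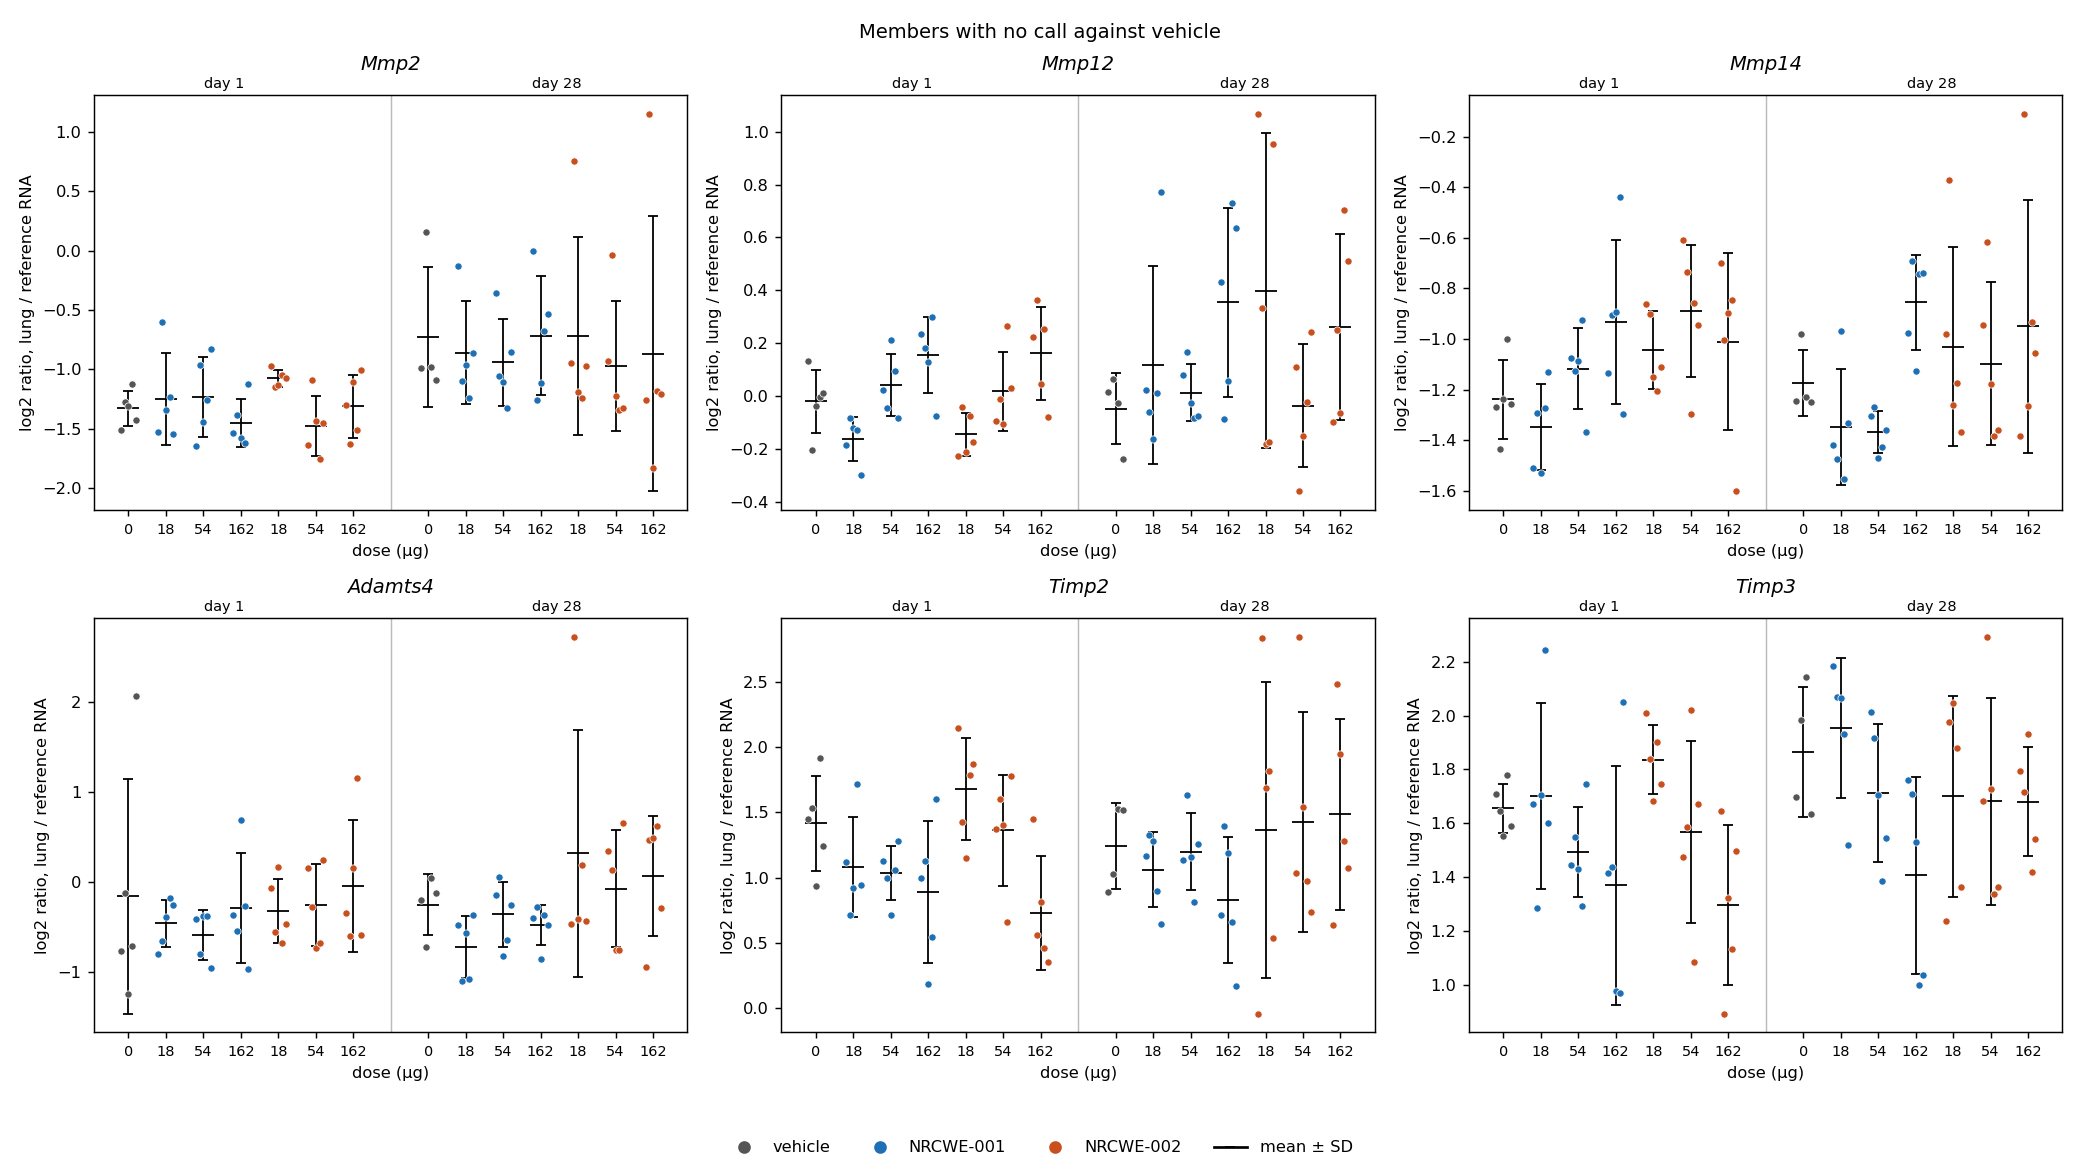
Log2 ratios of Mmp2, Mmp12, Mmp14, Adamts4, Timp2 and Timp3 in each lung (points) by dose in µg and day, with group mean and SD in black and a separate vertical scale for each gene. Exposed and vehicle mice overlap in these groups except for Mmp14 at 54 µg of NRCWE-001 on day 28, where the exposed mice lie at -1.27 and below, and single high points set the SD of several groups, such as 2.07 for Adamts4 in a vehicle mouse of day 1 and 1.15 for Mmp2 at 162 µg of NRCWE-002 on day 28.

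Genes around this family were read from lists of other metalloproteinases, other protease inhibitors, ADAM and ADAMTS enzymes, activators and partners of the proteases, and matrix substrates. Of 14 other metalloproteinases tested, 1 rose at 162 µg of NRCWE-001 on day 1 and none fell. This was Mmp3, stromelysin-1, which activates other metalloproteinases, with a 2.10-fold higher level (log2 difference 1.07 ± 0.23 SE, limma adjusted p = 0.01308). Its ratios were 1.11, 0.86, 1.07, 1.72 and -0.06 at 162 µg of NRCWE-001 against -0.32 to 0.22 in the vehicle mice, so replicate 5 was again within the vehicle range. Of 9 other inhibitors, 2 rose in that comparison and none fell, namely Serpina3n, a serine protease inhibitor of the acute phase, at 2.87-fold (adjusted p = 0.007053), and the cathepsin inhibitor Cstb at 1.52-fold (adjusted p = 0.04977). Serpina3n was also the 1 of 9 that rose at 162 µg of NRCWE-002, at 3.07-fold (adjusted p = 0.004723).

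Lcn2, neutrophil gelatinase-associated lipocalin, was the 1 of 20 activators and partners called against vehicle at single doses on day 1. It rose 6.75-fold at 162 µg of NRCWE-001 (limma, adjusted p = 0.01399), and 8.14-fold and 8.10-fold at 54 and 162 µg of NRCWE-002 (adjusted p = 0.01363 and 0.007157). Lcn2 ratios were 4.79, 4.36, 4.73, 4.70 and 0.96 at 162 µg of NRCWE-001 and 0.87 to 1.28 in the vehicle mice, with replicate 5 again at the vehicle level. Of 22 ADAM and ADAMTS genes, Adamts9, which cuts aggrecan and versican, rose 1.26-fold at 162 µg of NRCWE-001 on day 1 (adjusted p = 0.04985) and 1.33-fold at 18 µg on day 28 (adjusted p = 0.03015), and no other passed at a single dose. None of 24 matrix substrates was called against vehicle at a single dose. The dose effect called a few more genes, outside the naming rule, namely Adam33 with NRCWE-001 on day 1 (adjusted p = 0.01959), Cd63 with NRCWE-002 on day 1 (0.04971), and Ctss (0.01241), Cd44 (0.01241) and the matrix protein Spp1 (0.01212) with NRCWE-001 on day 28. Of 15 macrophage markers, Cd14 rose at 162 µg of both particles on day 1, 2.51-fold and 2.99-fold, and Siglecf, a marker of alveolar macrophages and eosinophils, fell to 0.528 of the vehicle level at 162 µg of NRCWE-001 (limma, adjusted p = 0.04977). Without replicate 5 of 162 µg NRCWE-001 the genes named from these lists were called in that comparison, with Mmp3 at 2.49-fold, Serpina3n at 3.68-fold, Lcn2 at 11.2-fold and Cd14 at 3.29-fold, and 5 of 13 neutrophil markers rose. Replicate 5 was set apart by its vehicle-level ratios of Lcn2, Serpina3n and other response genes, so these calls and folds are no separate check.

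Between the particles on day 28, where 4.75% of all genes were called, genes of the protease and matrix lists were called as well. After NRCWE-002 the ratios of Mmp15 (0.30 on the log2 scale), Adamts10 (0.35) and Itgb3 (0.21) were higher than after NRCWE-001, and those of Mmp16 (-0.11), Adamts9 (-0.16) and Vcan (-0.18) were lower. On day 1 the single called gene of these lists was Adam33, at -0.19 (limma, adjusted p = 0.01201). With slide as a fixed block none of these 7 differences was called, that of Vcan on day 28 turned to 0.06, and only 4 of 17624 genes were called on day 28 in place of 837.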

How the data were processed

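Lung RNA (Cy5) and a universal mouse reference RNA (Cy3) were measured on 69 Agilent 2-colour arrays without dye swaps, which leaves dye bias in the ratios. Scanner files deposited by the authors held intensities read with Feature Extraction 11.0.1.1, not normalized. The authors' deposited table held LOWESS-normalized log2 ratios, used as an alternative. Its columns had medians of -0.06 to 0.00 and correlated at 0.988 to 0.995 with the ratios computed here, so the sign was the same. Regressed on ratios without background correction, the deposited ratios had slopes of 0.988 to 0.998. The slope on the background-corrected ratios used here was not computed.

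Median intensities were corrected with normexp (offset 50) and loess in limma 3.58.1 (R 4.3.3). Between 0 and 470 spots per array, with a local background more than 10 median absolute deviations away from that of the array, were left out of the normexp fit, a step known from earlier results. Control and outlier spots were dropped, repeat spots were combined by their median, and probes well above background on at least 4 arrays were kept (36452 of 41174). Symbols came from a RefSeq table of GRCm38.p6, which matched 27471 probes, because the array annotation followed another build. A gene is the median of its kept probes.

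One fit of 69 arrays with 14 group means gave all contrasts, without covariates. Where nothing else is said, an adjusted p is limma's, 2-sided except for F-tests, with Benjamini-Hochberg adjustment over 17624 genes. The fit was tested on simulated data. Replicate mice are separate animals. All 10 members were named. Of each other list, the called genes with the smallest p, up to 4 per contrast, were named, with the 3 genes most correlated with each called member. Exceptions are marked. The members, lists and tests were chosen with earlier results of these data known. Alternatives changed the background correction, signals, centring, table, filter, probe, block, day and array left out. Normexp fitted on all spots and the fit without slide 16 were added after the data were seen. The number of arrays limits precision. One gene of the other lists is not reported here.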

Additional observations from a re-analysis of the deposited data

Results flagged for a closer look

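A mouse was set apart when its gap to the nearest other mouse of its group, divided by the range of the group, exceeded Dixon's 95% critical value. Chance marks about 1 in 20 groups, or 7 of the 140 gene and group pairs tested here, and 10 were marked. Timp1 at 162 µg of NRCWE-001 on day 1 had a low mouse, replicate 5, at -2.48 against 0.43 to 1.42 in the other 4. Mmp2 was high on day 28 in replicate 2 of the vehicle group (0.15), of 18 µg NRCWE-002 (0.75) and of 162 µg NRCWE-002 (1.15), all of them on slides 3 and 16. Mmp14 was high in the same vehicle mouse of day 28 (-0.98), and Adamts4 in replicate 2 of 18 µg NRCWE-002 on day 28 (2.73), again on slide 16. Mmp9 was low in replicate 3 of 162 µg NRCWE-002 on day 1 (-1.35) and high in replicate 3 of 18 µg NRCWE-002 (-1.13). In that 18 µg mouse Mmp11 was low (-0.37). Mmp12 was high in replicate 5 of 18 µg NRCWE-001 on day 28 (0.77).

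Effects that differed between groups concerned Mmp11. In the main fit its ratio on day 28 was higher after NRCWE-002 than after NRCWE-001 by 0.18 on the log2 scale, averaged over doses (limma, adjusted p = 0.03026), beside 4.75% of all genes called. It was called under 5 of 12 alternatives, not with slide as a fixed block (adjusted p = 0.9179), and turned to -0.15 with median centring. At 54 µg of NRCWE-001, Mmp11 lay above the vehicle mean in 5 of 5 mice on day 1, by 0.18 on average, and below it in 5 of 5 mice on day 28, with a mean difference of -0.28. This difference between the days was not tested.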

How the results depend on the processing

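No paired analysis was possible because the labels give groups no shared replicate numbers, and slides, which hold several groups, served as blocks. Away from single arrays left out, 204 counts of called members under an alternative stayed within 1.5 times the reported count and 30 did not. At 162 µg of NRCWE-001 on day 1, where 1 member was called, 4 were called with slide as a fixed block, 3 with slide as a random block or scan day as a block, and 2 with processed signals, the brightest probe or day 1 arrays alone. The dose effect of NRCWE-001 on day 1 gave 4 under each of the 3 blocks and 2 under the other 3 settings. For NRCWE-002 on day 1, 162 µg gave 2 with the scan day block and 3 with day 1 arrays alone, 54 µg gave 0 and the dose effect 3 with day 1 arrays alone. On day 28, the count at 18 µg of NRCWE-001 and that of the NRCWE-001 dose effect were 0 with median centring or day 28 arrays alone, and the dose effect was 2 under each block. Between the particles, the count of day 28 was 0 with processed signals, each block, normexp fitted on all spots or day 28 arrays alone, and that of day 1 was 1 with day 1 arrays alone. Where 1 array was left out, the counts ran from 1 to 2 for 162 µg of NRCWE-001 and for its dose effect on day 1, from 0 to 1 for 54 µg of NRCWE-002 on day 1 and from 0 to 1 for the particles on day 28. The causes were not tested.

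Timp1 at 162 µg was called under 11 of 11 alternatives for both particles, with log2 differences of 2.53 to 3.22 for NRCWE-001 and 2.72 to 3.35 for NRCWE-002. Mmp11 between the particles on day 28 reversed to -0.15 with median centring. Median centring moved the median of all genes by at most 0.0847 in dose contrasts and by -0.128 in the change of the NRCWE-002 effect between days. Dim probes near background have compressed ratios, which limits Mmp12 most.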
